A study of Mus musculus with 6 samples.

Results

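The genes described here are 10 UDP-glycosyltransferases of the Ugt2 and Ugt3 families in mouse liver: Ugt2a3, Ugt2b1, Ugt2b5, Ugt2b34, Ugt2b35, Ugt2b36, Ugt2b37, Ugt2b38, Ugt3a1 and Ugt3a2. The family was picked as a subject with earlier results of these data known, and its members were taken by gene symbol with no threshold on their values. Each of the 10 symbols was found once among 24927 rows. Ugt2 enzymes sit in the membrane of the endoplasmic reticulum and transfer glucuronic acid from UDP-glucuronate to steroids, bile acids, fatty acids and drugs, which makes them water-soluble for export into bile or urine. Liver is their main site in the body, and in the mouse many Ugt2b genes lie side by side in a cluster. Ugt3 enzymes are relatives that, from work on the human proteins, use UDP-N-acetylglucosamine, UDP-glucose or UDP-xylose in place of UDP-glucuronate.

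Whole-liver RNA was sequenced in 3 samples labelled Cdkl3-/- (KO) and 3 labelled wild type (WT). All were from C57BL/6 mice, labelled male, 10 months old and kept on chow. The series' design text says that Cdkl3, which encodes a cyclin-dependent kinase-like protein, was knocked out in the liver, and neither an allele nor a promoter driving a deletion is named in the sources used here. Separate animals are not stated for the libraries, and the p-values below cover the spread among these 6 libraries only. In the table of KO replicate 3 the column header carries another sample code than the title, and its label was followed.

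The counted depth of the libraries was 24530000 to 39550000 reads in KO and 20460000 to 48610000 in WT. Cdkl3 itself did not separate the labels: 10, 31 and 28 reads were counted in KO replicates 1 to 3 and 32, 23 and 13 in WT replicates 1 to 3, and groups are therefore named here by their labels. Xist, the RNA that coats the inactive X chromosome, was at 0.0125 to 0.0273 FPKM in the KO libraries and at 192 to 292 FPKM in the WT libraries, and the Y-linked Ddx3y was at 38.2 to 50.8 FPKM in KO and at 0.0694 to 0.207 FPKM in WT. The Y-linked Eif2s3y, Uty and Kdm5d split the libraries in the same way. Genotype and these sex-linked differences cannot be told apart in any comparison below. Mitochondrial transcripts took up 63.17% to 70.11% of all FPKM in KO and 70.47% to 73.88% in WT, without overlap. Of 9 hepatocyte markers with a usable row, 8 were tested, 5 were higher in KO and 0 were lower, and their summed level was 3339 to 4526 FPKM in KO and 1615 to 2034 FPKM in WT. Of the 5, Cyp2f2 reached 1 FPKM in its KO libraries only, so it was tested through the group where it is high. Endothelial markers (3 of 3 tested lower in KO) summed to 5.47 to 5.90 FPKM in KO and 9.97 to 11.3 FPKM in WT, and stellate cell markers (3 of 3 lower) to 21.3 to 32.2 FPKM in KO and 76.1 to 129.7 FPKM in WT. The endothelial Cdh5 reached 1 FPKM in its WT libraries only, and was likewise tested through the group where it is high. Kupffer cell markers (2 of 3 lower) summed to 10.0 to 42.7 FPKM in KO and 20.1 to 33.1 FPKM in WT, and intestinal markers (1 tested, Fabp2, higher) to 27.0 to 55.5 FPKM in KO and 1.87 to 6.33 FPKM in WT. Untested endothelial Pecam1, Stab2 and Clec4g, stellate Col1a1 and Kupffer Clec4f and Cd68, all under 1 FPKM, had higher means in KO. The part of these shifts in the results below was not tested. In whole liver, fewer cells of a type and less RNA per cell cannot be told apart.

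Since 7 Ugt2b genes and Ugt2a3 are neighbours, the bases just before their start sites are shown first, to let a reader see what the promoters share. On GRCm38 the chromosome 5 cluster runs in the order Ugt2b34, Ugt2b1, Ugt2b35, Ugt2b36, Ugt2b5, Ugt2b37, Ugt2a3 and Ugt2b38 over 534.4 kb, with Ugt2b35 alone on the plus strand. Ugt3a1 and Ugt3a2 lie 20.5 kb apart on the plus strand of chromosome 15. Start sites from RefSeq were matched by symbol for 9 of the 10 genes, without Ugt3a2. The 140 bases upstream of each start, printed 5′ to 3′ on the gene's own strand, lie at chr5:87424204-87424343 for Ugt2b38, chr5:87254789-87254928 for Ugt2b37, chr5:87140341-87140480 for Ugt2b5, chr5:87092556-87092695 for Ugt2b36, chr5:87000720-87000859 for Ugt2b35, chr5:86926504-86926643 for Ugt2b1, chr5:86906938-86907077 for Ugt2b34, chr5:87337196-87337335 for Ugt2a3 and chr15:9279689-9279828 for Ugt3a1 (RefSeq, GRCm38.p6; the minus strand for all but Ugt2b35 and Ugt3a1). Capitals mark matches, on either strand, to GTTA followed by any 4 bases and TTAA.
Ugt2b38: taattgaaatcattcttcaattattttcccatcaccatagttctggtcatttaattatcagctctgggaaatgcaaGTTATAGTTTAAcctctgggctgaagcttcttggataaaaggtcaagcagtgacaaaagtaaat
Ugt2b37: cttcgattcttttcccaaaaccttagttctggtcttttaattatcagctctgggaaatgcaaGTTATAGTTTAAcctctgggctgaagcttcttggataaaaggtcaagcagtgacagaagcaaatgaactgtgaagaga
Ugt2b5: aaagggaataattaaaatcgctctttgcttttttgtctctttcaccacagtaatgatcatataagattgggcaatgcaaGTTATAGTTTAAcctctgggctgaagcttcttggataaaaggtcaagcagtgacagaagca
Ugt2b36: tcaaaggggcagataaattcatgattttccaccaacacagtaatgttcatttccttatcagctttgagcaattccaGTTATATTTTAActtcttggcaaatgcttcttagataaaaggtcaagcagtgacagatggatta
Ugt2b35: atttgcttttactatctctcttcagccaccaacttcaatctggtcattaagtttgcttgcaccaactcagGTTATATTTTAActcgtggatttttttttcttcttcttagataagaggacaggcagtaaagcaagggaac
Ugt2b1: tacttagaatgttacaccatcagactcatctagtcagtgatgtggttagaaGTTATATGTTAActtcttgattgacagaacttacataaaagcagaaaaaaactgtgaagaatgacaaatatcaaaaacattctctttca
Ugt2b34: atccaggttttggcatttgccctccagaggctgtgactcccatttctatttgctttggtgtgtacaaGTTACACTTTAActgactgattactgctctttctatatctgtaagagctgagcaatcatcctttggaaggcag
Ugt2a3: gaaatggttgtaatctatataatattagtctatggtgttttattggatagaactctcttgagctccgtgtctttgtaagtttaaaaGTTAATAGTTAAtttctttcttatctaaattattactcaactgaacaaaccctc
Ugt3a1: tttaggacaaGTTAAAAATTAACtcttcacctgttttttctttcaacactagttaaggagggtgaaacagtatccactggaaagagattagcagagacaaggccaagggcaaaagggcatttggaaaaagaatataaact

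The pattern was chosen after the sequences had been read. It was present in 9 of 9 windows of 300 bases (250 before the start and 50 after it), against 246 of 32851 such windows in the mouse annotation (0.75%). Its first base lay between 54 and 130 bases before the start. Other motifs, not chosen from these sequences, were searched on both strands. Their counts cannot be ranked against that of a pattern chosen from the same windows. The shorter motif GTTAAT, which overlaps the capitals, was in 2 of 9 windows (Ugt2a3 and Ugt3a1), against 7.1% of all windows. The nuclear receptor core AGGTCA was in 5 of 9 windows (Ugt2b5, Ugt2b35, Ugt2b36, Ugt2b37 and Ugt2b38), against 16.26%. In Ugt2b35 the match began at -215 from the start, outside the printed bases. In the 4 others it lay in a printed stretch that they share, so these are not separate cases. The STAT pattern TTCNNNGAA was in 0 of 9, against 8.3%. Ugt2b5, Ugt2b37 and Ugt2b38 can be seen to carry nearly the same letters in and just after the capitals. Their coding sequences were also the most alike of the 10, with 97.0% identity between Ugt2b5 and Ugt2b38, 94.7% between Ugt2b5 and Ugt2b37 and 94.1% between Ugt2b37 and Ugt2b38. Ugt3a1 and Ugt3a2 were 93.3% identical, and Ugt2b1 and its neighbour Ugt2b34 only 74.7%. A match describes letters and is not evidence that a factor binds.

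Of the 10 genes, 9 passed the filter of at least 1 FPKM (fragments per kilobase of transcript, scaled to library depth) in at least 3 libraries, 5 were higher in KO and 0 were lower. The background is large: 33.7% of all 5673 tested genes were higher in KO and 20.4% were lower. The median difference of the 9 genes was 0.65 on the log2(FPKM + 1) scale, beside 0.12 over all tested genes. The 5 genes called higher were Ugt2b1, Ugt2b5, Ugt2b35, Ugt2b36 and Ugt2b38, all of the Ugt2b branch. The libraries of the 2 groups did not overlap for these 5 of the 9, against 38.0% of all tested genes with every KO library above every WT library, 25.8% with every KO library below and 63.9% in either direction. Of the 9, 8 had at least 1 FPKM in all 6 libraries, and Ugt2b38 would not have passed on its WT libraries alone. Scaling moved the split over all genes from 1911 higher and 1157 lower to 1443 and 1891 with each library centred on its median, to 1427 and 1761 with quantile normalization and to 1229 and 1825 with mitochondrial rows left out of the total. The 9 genes then gave 4 higher and 0 lower, 4 and 0, and 4 and 1.

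**Figure D1:**
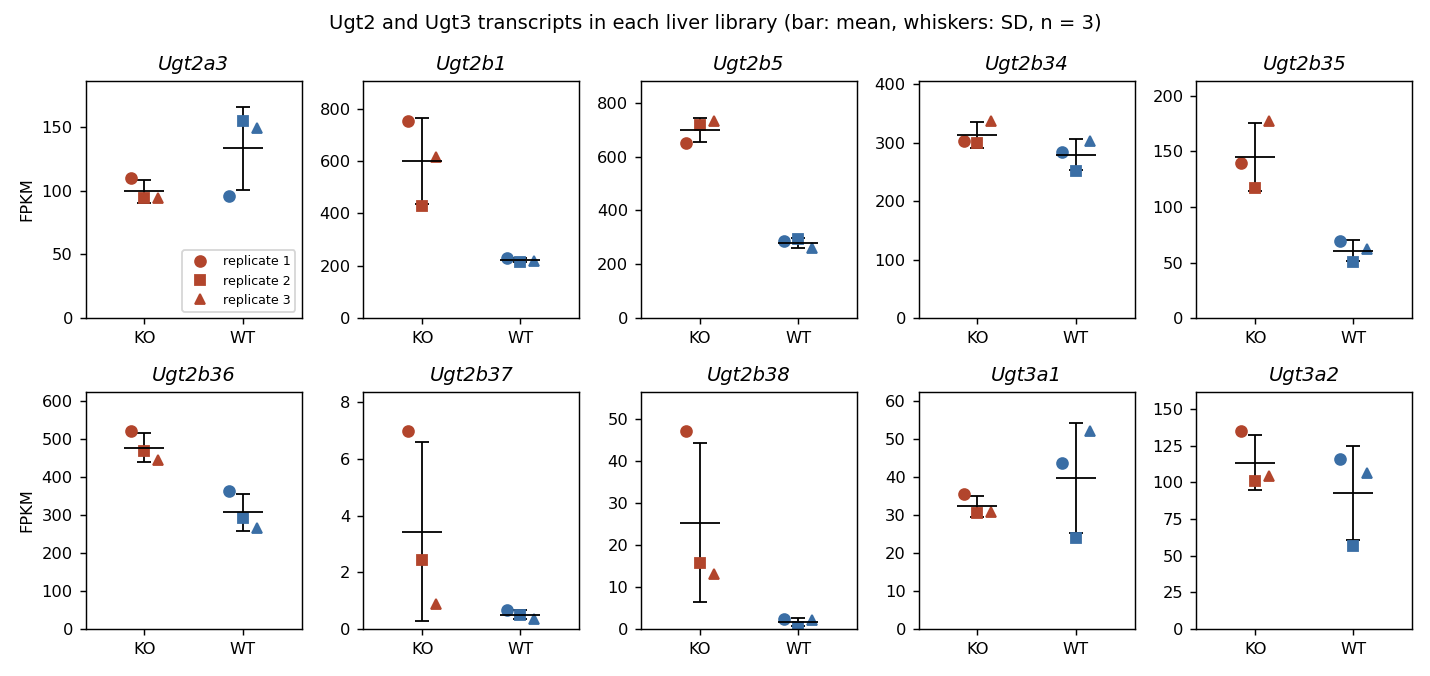
FPKM of each of the 10 genes in the 3 libraries labelled KO (red, left) and the 3 labelled WT (blue, right), each panel on its own axis from 0. Bars are means and whiskers SD (n = 3). The groups do not overlap for Ugt2b1, Ugt2b5, Ugt2b35, Ugt2b36, Ugt2b37 and Ugt2b38, and they overlap for the other 4.

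By group mean, Ugt2b5 was the most abundant of the 10 in KO and Ugt2b36 in WT, though not in every library: Ugt2b1 was above Ugt2b5 in KO replicate 1, and Ugt2b36 led in WT replicate 1 only. Ugt2b5 was at 650.3, 717 and 734 FPKM in KO replicates 1 to 3 and at 286, 294 and 259 FPKM in WT replicates 1 to 3. All KO libraries lay above all WT libraries, the spread within each group was small, and the KO mean was 2.50 times the WT mean. The log2(FPKM + 1) difference of 1.32 had an SE of 0.17 and a 95% interval from 0.92 to 1.72 (adjusted p 0.00063 by limma), and it was 0.66 with quantile normalization. Among 23003 rows that are not mitochondrial, Ugt2b5 ranked 33 in KO and 50 in WT by mean FPKM. Of its windows of 50 bases, 41.7% also occurred in transcripts of other genes, and of its windows of 100 bases 24.7% did. A read that lies wholly within such a stretch fits more than 1 gene. These shares of windows do not give the size of the resulting uncertainty in the level.

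Ugt2b1, whose rat counterpart conjugates bisphenol A, was at 754, 429 and 615 FPKM in KO replicates 1 to 3 and at 231, 216 and 219 FPKM in WT replicates 1 to 3. The KO libraries differed among themselves by more than the WT libraries did, with 599 ± 163 FPKM in KO and 222 ± 8.01 FPKM in WT (SD, n = 3 each), and still did not overlap them. On the log2(FPKM + 1) scale it stood 1.39 higher in KO (SE 0.23, limma adjusted p 0.0018), and 0.78 higher with quantile normalization. None of its windows of 50 bases occurred in another gene's transcript.

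Ugt2b35, the plus-strand gene of the cluster, was at 139.8, 117 and 178 FPKM in KO replicates 1 to 3 and at 69.2, 50.4 and 62.6 FPKM in WT replicates 1 to 3. The KO mean was 2.39 times the WT mean, a log2(FPKM + 1) difference of 1.23 (SE 0.21, limma adjusted p 0.0021). The lowest KO library lay above the highest WT library.

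Ugt2b36 was at 521, 467 and 445 FPKM in KO replicates 1 to 3 and at 362, 292 and 267 FPKM in WT replicates 1 to 3. It moved least of the 5, with 1.56 times the WT mean and a log2(FPKM + 1) difference of 0.65 (SE 0.19, limma adjusted p 0.022). This call did not survive leaving out KO replicate 1 (adjusted p 0.067), KO replicate 2 (0.065), KO replicate 3 (0.052), WT replicate 2 (0.071) or WT replicate 3 (0.081), nor any of the 3 other scalings, under quantile normalization with a difference of -0.03.

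Ugt2b34, next to Ugt2b1 in the cluster with 9.7 kb between them, was at 302, 299 and 338 FPKM in KO replicates 1 to 3 and at 284, 251 and 303 FPKM in WT replicates 1 to 3. The groups overlapped, and the log2(FPKM + 1) difference of 0.17 had a 95% interval of -0.24 to 0.57 (limma adjusted p 0.45). Its direction turned under the 3 other scalings (-0.12 with median centring, -0.30 with quantile normalization and -0.21 without mitochondrial rows), and it was called higher once trends on GC content and length were removed (0.51, adjusted p 0.033). The neighbours differed within each library: Ugt2b1 was at 2.50, 1.43 and 1.82 times Ugt2b34 in the KO libraries and at 0.813, 0.860 and 0.723 times in the WT libraries. Such a ratio is free of the scaling between libraries, and it lay apart in the 2 groups. Since Ugt2b1 was called and Ugt2b34 was not, this separation adds little to those calls.

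**Figure D2:**
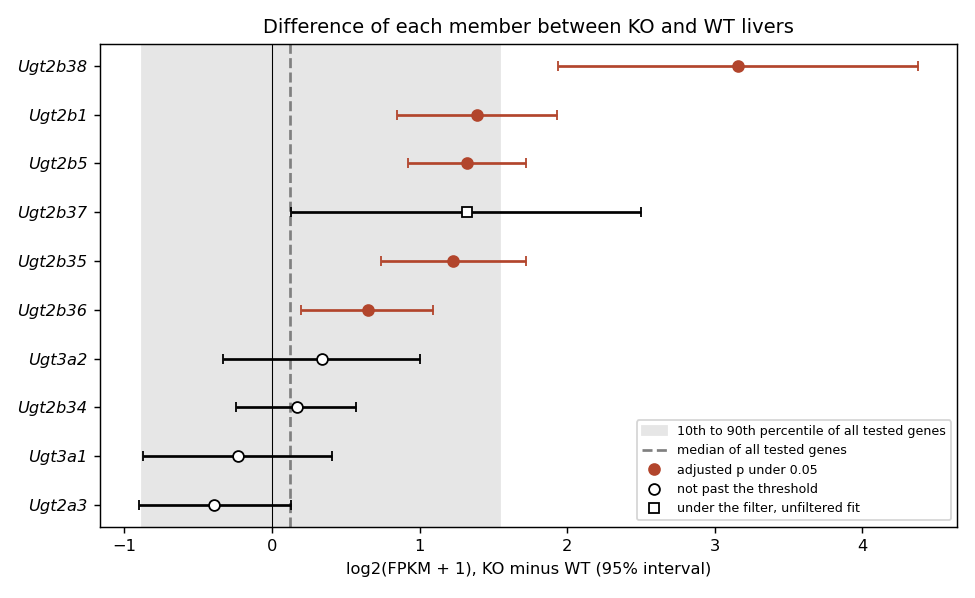
Difference in log2(FPKM + 1), KO minus WT, for each of the 10 genes with its 95% interval, over the range from -0.88 to 1.55 that leaves out the outer 10% of all tested genes on either side (grey) and their median (dashed). Ugt2b38 lies beyond the grey range at 3.16, the 4 other red genes and Ugt2b37 lie within it, and the intervals of Ugt2a3, Ugt2b34, Ugt3a1 and Ugt3a2 include 0.

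Ugt2b38 had the largest fold difference of the tested members and a low level. It was at 47.1, 15.7 and 13.2 FPKM in KO replicates 1 to 3 and at 2.33, 0.511 and 2.17 FPKM in WT replicates 1 to 3, from 2186, 1176 and 666 reads in KO and 159, 47 and 84 reads in WT. The groups were apart, and KO replicate 1 was the highest library by a wide margin. The log2(FPKM + 1) difference was 3.16 (SE 0.52, limma adjusted p 0.0023), and without KO replicate 1 it was 2.61 (adjusted p 0.0021). The ratio of group means was 15.2, and 8.64 without KO replicate 1. In rank it stood at 714 in KO and 3956 in WT among the rows that are not mitochondrial.

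Ugt2b37, between Ugt2b5 and Ugt2a3, reached 1 FPKM in 2 libraries and so did not pass the filter. It was at 6.97, 2.44 and 0.889 FPKM in KO replicates 1 to 3 and at 0.674, 0.50 and 0.335 FPKM in WT replicates 1 to 3, from 324, 183 and 45 reads in KO and 46, 46 and 13 reads in WT. The lowest KO value lay just above the highest WT value, so the groups did not overlap. In the fit without a filter the difference was 1.32 (SE 0.49, limma adjusted p 0.12), and without KO replicate 1 it was 0.77 (adjusted p 0.114). With a pseudocount of 0.1 in place of 1 and no filter it was 2.15 (adjusted p 0.0555). The mean ratio of 6.83 was 3.31 without KO replicate 1.

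Transcripts of kidney tubule cells were high in that same library. The 11 usable kidney markers summed to 5318 FPKM in KO replicate 1, to 4.39 and 5.92 FPKM in KO replicates 2 and 3, and to 0.845, 0.432 and 1.47 FPKM in WT replicates 1 to 3. Nearly all of the sum in KO was Kap, an androgen-responsive kidney protein, at 5264, 4.18 and 5.72 FPKM in KO replicates 1 to 3 and at 0.0785, 0 and 0 FPKM in WT replicates 1 to 3. Slc7a13, an amino acid transporter of the proximal tubule, was at 35.3, 0.0236 and 0.035 FPKM in KO and at 0.0518, 0 and 0 FPKM in WT. Slc22a6, Slc22a8 and Nphs1 were listed at 0 in the 5 libraries other than KO replicate 1. Ugt2b38 was also higher than in any WT library in KO replicates 2 and 3, where Kap was at 4.18 and 5.72 FPKM and the other kidney markers were near 0. How far kidney RNA adds to Ugt2b37 and Ugt2b38 in KO replicate 1 was not tested.

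**Figure D3:**
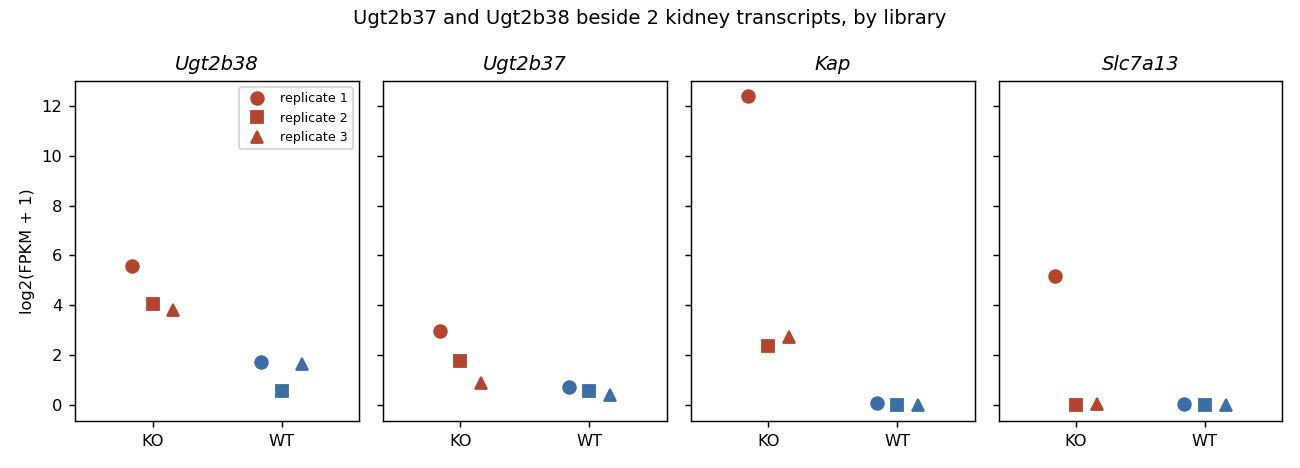
Levels, in log2(FPKM + 1), of Ugt2b38, Ugt2b37 and the kidney transcripts Kap and Slc7a13 in each library, KO left and WT right. KO replicate 1 is the highest point in all 4 panels, and KO replicates 2 and 3 lie above the WT libraries for Ugt2b38, Ugt2b37 and Kap.

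Shared sequence limits the 2 low members as well. In Ugt2b38, 37.4% of windows of 50 bases and 24.2% of windows of 100 bases occurred in transcripts of other genes, and in Ugt2b37 18.3% and 1.1% did. The authors' way of counting reads that fit more than 1 gene is not given in the sources used here. Relative to Ugt2b5, the Ugt2b38 level was 0.0725, 0.0219 and 0.0180 in KO replicates 1 to 3 and 0.00816, 0.00174 and 0.00838 in WT replicates 1 to 3, so the ratio was not fixed across libraries. For Ugt2b37 the ratio to Ugt2b5 was 0.0107, 0.00341 and 0.00121 in KO and 0.00236, 0.00170 and 0.00130 in WT, which overlap.

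Ugt2a3, whose human counterpart conjugates bile acids, was not called. It was at 109.8, 94.0 and 94.6 FPKM in KO replicates 1 to 3 and at 95.5, 155 and 149 FPKM in WT replicates 1 to 3. WT replicate 1 fell within the KO range and the other 2 WT libraries lay above it. On the log2(FPKM + 1) scale KO minus WT was -0.39 (SE 0.22, limma adjusted p 0.17) with a 95% interval of -0.90 to 0.13. It passed the threshold without WT replicate 1 (-0.61, adjusted p 0.025) and with mitochondrial rows left out of the total (-0.77, adjusted p 0.038). Ugt2b5, 2 genes away in the cluster, stood at 5.92, 7.63 and 7.76 times Ugt2a3 in the KO libraries and at 3.0, 1.90 and 1.74 times in the WT libraries, so this ratio lay apart in the 2 groups.

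Ugt3a1 was at 35.4, 30.5 and 30.8 FPKM in KO replicates 1 to 3 and at 43.6, 23.8 and 52.0 FPKM in WT replicates 1 to 3, a log2(FPKM + 1) difference of -0.23 (95% interval -0.87 to 0.41, limma adjusted p 0.51). Ugt3a2 was at 134.9, 101 and 104 FPKM in KO replicates 1 to 3 and at 116, 56.3 and 107 FPKM in WT replicates 1 to 3, a difference of 0.34 (-0.33 to 1.00, limma adjusted p 0.35). The groups overlapped for both genes, and the wide WT range came from WT replicate 2, the lowest for each. Their deviations from the group means ran together over the 6 libraries (Pearson r 0.94, given as a description). Ugt3a2 exceeded Ugt3a1 by 3.81, 3.31 and 3.38 times in the KO libraries and by 2.66, 2.36 and 2.05 times in the WT libraries. The 2 groups thus did not overlap in this ratio, and neither gene was called by itself. Without WT replicate 2 the Ugt3a1 difference was -0.55 (adjusted p 0.0505), and with mitochondrial rows left out of the total that of Ugt3a2 was -0.04. Windows of 50 bases shared with other genes made up 7.6% of Ugt3a1 and 7.0% of Ugt3a2. In all, 8 such ratios between members were formed. Their pairs were not planned, and the share of other gene pairs with ratios that lie apart was not worked out. An exact two-sided permutation test of 3 against 3 libraries cannot give a p below 0.1, so none of them can pass 0.05.

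The summed level of the 10 genes was 2701, 2273 and 2553 FPKM in KO replicates 1 to 3 and 1490.3, 1339 and 1419.9 FPKM in WT replicates 1 to 3. As a share of all FPKM outside the mitochondrial rows it was 1.79%, 1.55% and 1.31% in KO and 1.2%, 1.1% and 1.1% in WT, so the groups were apart on both scales and closer on the second. Within the sum, Ugt2b5 made up 28.1% ± 3.77 in KO and 19.8% ± 1.94 in WT, and Ugt2b1 made up 23.6% ± 4.55 in KO and 15.7% ± 0.378 in WT (SD, n = 3 each). Ugt2b34 took up 12.5% ± 1.16 in KO and 19.7% ± 1.42 in WT, and Ugt2a3 3.97% ± 0.23 in KO and 9.49% ± 2.72 in WT. The share of Ugt2b36 was 19.1% ± 1.56 in KO and 21.6% ± 2.76 in WT, which overlap. These shares depend on each other, since they add up to the whole.

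**Figure D4:**
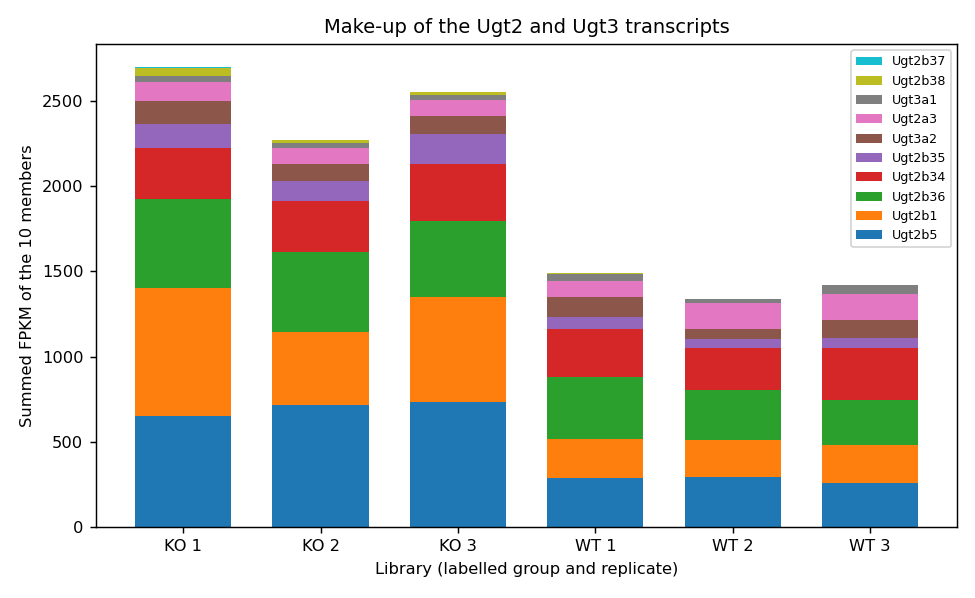
Summed FPKM of the 10 genes in each library, KO left and WT right, stacked by gene. The KO bars reach 2273 to 2701 FPKM and the WT bars 1339 to 1490.3 FPKM, and the Ugt2b5 and Ugt2b1 segments at the bottom are taller in each KO bar.

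By mean FPKM the order in KO was Ugt2b5, Ugt2b1, Ugt2b36, Ugt2b34, Ugt2b35, Ugt3a2, Ugt2a3, Ugt3a1, Ugt2b38 and Ugt2b37. Neighbours in that order did not overlap at 4 steps, which were Ugt2b36 over Ugt2b34, Ugt2b34 over Ugt2b35, Ugt2a3 over Ugt3a1 and Ugt2b38 over Ugt2b37. In WT the order was Ugt2b36, Ugt2b5, Ugt2b34, Ugt2b1, Ugt2a3, Ugt3a2, Ugt2b35, Ugt3a1, Ugt2b38 and Ugt2b37, with steps beyond the spread only at Ugt2b34 over Ugt2b1, Ugt2b1 over Ugt2a3 and Ugt3a1 over Ugt2b38. The leading 3 WT genes, Ugt2b36, Ugt2b5 and Ugt2b34, were thus not separated by their libraries. FPKM is per length of transcript, so the order rests on the exon length used for each gene. That length was 4312 bases for Ugt2b34, 1858 for Ugt2b5 and 2059 for Ugt2b36. How far these lengths and reads shared between members shift the order was not tested.

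For likeness, members and genes with Gm-numbered or Rik names were left out. Of the other tested genes, those most like Ugt2b5, the member with the highest mean, were Clpx (Pearson r 0.9993 over the 6 libraries), Slc35e3 (0.9987), Mtap (0.9982), Tmed4 (0.9981) and Sucla2 (0.9975), and 74 exceeded 0.99. For Ugt2b38, the called member with the largest difference, they were Brd3 (0.9963), Adtrp (0.9939), Cox7a2 (0.9912), Cyp4v3 (0.9904) and Ets2 (0.9903). Among the genes kept for likeness, these 5 were all that exceeded 0.99. The 6 points share the split into 2 groups, which alone gives a high r to genes that differ between them.

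Of 34 other listed genes of glucuronidation, 22 had a usable row and 14 were tested, of which 9 were higher and 2 lower with a median difference of 0.85, beside 33.7% higher, 20.4% lower and a median of 0.12 over all tested genes. With mitochondrial rows left out of the total, 6 of the 14 were higher, and among the 8 that reached 10 FPKM in 3 or more libraries 3 were higher and 2 lower. On the list, 10 Ugt1a and Ugt2a genes were not analysed here. The list of UDP-glucuronate supply and related transporters had 4 of 6 tested genes higher and 1 lower. Ugdh, which makes UDP-glucuronate, was at 35.1, 37.1 and 44.3 FPKM in KO replicates 1 to 3 and at 17.2, 15.4 and 14.4 FPKM in WT replicates 1 to 3 (difference 1.25, limma adjusted p 0.00065). The transporter of UDP-glucuronate into the endoplasmic reticulum, Slc35d1, averaged 5.23 ± 0.613 FPKM in KO and 2.46 ± 0.52 FPKM in WT (0.85, adjusted p 0.0042), and missed the threshold with mitochondrial rows left out (0.56, adjusted p 0.051). Slc35d2, a Golgi nucleotide sugar transporter, averaged 10.7 FPKM in KO and 5.61 FPKM in WT (0.81, adjusted p 0.013), a call lost with mitochondrial rows left out of the total (0.47, adjusted p 0.139) or with GC and length trends removed (0.42, adjusted p 0.085). Slc35b1, which exchanges ATP and ADP across the membrane of the endoplasmic reticulum, averaged 9.23 ± 5.28 FPKM in KO and 1.14 ± 0.84 FPKM in WT (2.16, adjusted p 0.0072), and GC and length trends removed together with a replicate block ended this call (1.34, adjusted p 0.0578). Slc35a3, a UDP-N-acetylglucosamine transporter named after its values were seen as the 1 lower gene, averaged 18.4 FPKM in KO and 26.4 FPKM in WT (-0.51, adjusted p 0.039), a call lost without KO replicate 2 or 3 or without any 1 WT library.

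Transport of glucuronides had 3 of 5 tested genes higher and 1 lower. Slco1a1, an uptake transporter of hepatocytes, was at 289, 155 and 151 FPKM in KO replicates 1 to 3 and at 4.34, 2.16 and 2.59 FPKM in WT replicates 1 to 3 (difference 5.60, limma adjusted p 2.95e-05). Slco1a4, a related uptake transporter, went the other way, with 32.9, 20.4 and 24.5 FPKM in KO and 121.8, 92.4 and 84.0 FPKM in WT (-1.91, adjusted p 0.00043). The exporters Abcg2 (1.63, adjusted p 0.00041) and Abcc2 (0.86, adjusted p 0.0039), both of the canalicular membrane, were higher in KO, Abcc2 not past the threshold with mitochondrial rows left out (0.49, adjusted p 0.115). Downstream of glucuronate, 2 of 3 tested genes were higher. Akr1a1, which reduces glucuronate, averaged 6.25 FPKM in KO and 1.72 FPKM in WT (1.42, adjusted p 0.0013), with a difference of 0.70 once GC and length trends were removed. Xylb, a xylulose kinase, averaged 2.44 FPKM in KO and 0.0601 FPKM in WT (1.66, adjusted p 0.00047). Its difference was 1.04 with those trends removed and 4.0 with a pseudocount of 0.1, and it passed the filter through its KO libraries alone. Ugt8a, the 1 other transferase of the list with a usable row, was at 3.88, 0.145 and 0.0578 FPKM in KO and at 0.257, 0.190 and 0.215 FPKM in WT, high in KO replicate 1 as the kidney markers were.

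**Figure D5:**
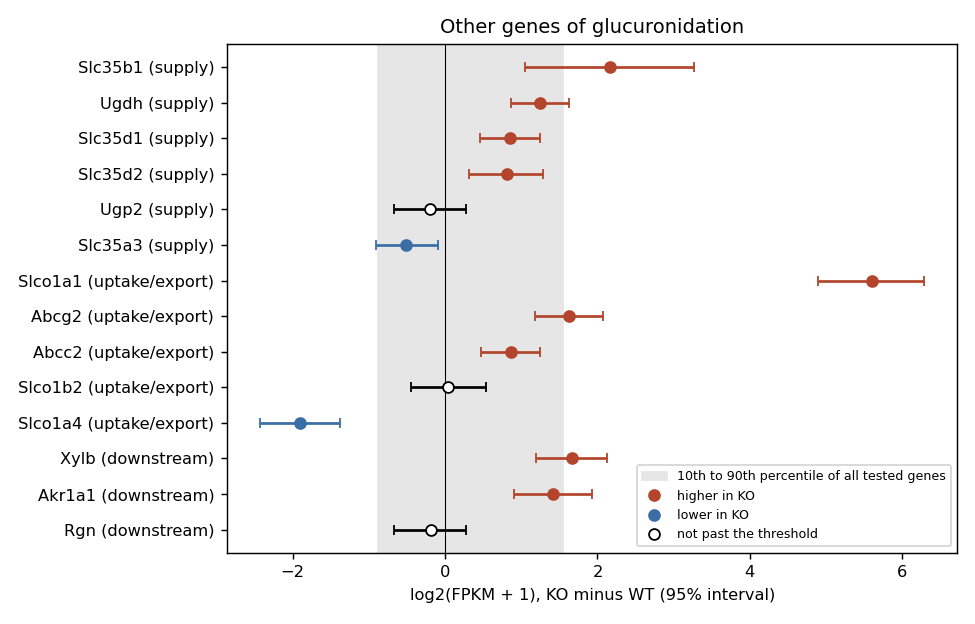
Difference in log2(FPKM + 1), KO minus WT, with its 95% interval, for the 14 tested genes of UDP-glucuronate supply and related transporters, glucuronide uptake or export and the steps downstream of glucuronate. Of these, 9 are higher (red), 2 are lower (blue) and 3 are not past the threshold (open), and Slco1a1 lies at 5.60.

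Among 24 listed regulators of UGT transcription, 23 had a usable row and 11 were tested, with 6 higher, 1 lower and a median of 0.57, against the 33.7% higher and 20.4% lower of all tested genes. This balance depended on the scaling: 2 were higher and 3 lower with GC and length trends removed, 3 and 2 with median centring or mitochondrial rows left out, and 3 and 1 with quantile normalization. Nr1h4, the bile acid receptor FXR, was at 16.3, 19.2 and 14.6 FPKM in KO replicates 1 to 3 and at 7.62, 4.64 and 5.22 FPKM in WT replicates 1 to 3 (difference 1.39, limma adjusted p 0.001), and the difference was 0.84 with GC and length trends removed. Bcl6, a transcriptional repressor, averaged 9.46 ± 2.78 FPKM in KO and 2.54 ± 0.979 FPKM in WT (1.57, adjusted p 0.0018). Nfe2l2, the stress-responsive factor NRF2, averaged 21.7 ± 5.67 FPKM in KO and 48.7 ± 8.24 FPKM in WT (-1.14, adjusted p 0.0035). The count of 6 fell to 2 without KO replicate 2 and to 3 without WT replicate 2 or 3.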

How the data were processed

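RNA-seq of 6 liver samples was analysed from the tables the authors deposited, which give an FPKM value for each gene in each library, per the file headers. The submitters' processing notes name HISAT2 and GRCm39. Tool versions, the counting tool and the annotation are not given there. Identifier and symbol never named the same gene (0 of 24927 rows). Symbols were used because FPKM multiplied by GENCODE M21 exon length gave whole reads for 98.9% of 43287 low values (up to 40 reads, within 0.15) and for all 60 values of the 10 genes within 0.005. The chromosome 1 block of 1787 rows, where at most 38.54% were whole, and 127 rows without a symbol were left out.

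The 2 labelled genotypes were compared on log2(FPKM + 1) by limma 3.58.1 (R 4.3.3, trend and robust moderation, no covariates), in 5673 genes that reached 1 FPKM in 3 or more libraries. The pseudocount understates changes of low genes. Calls needed a Benjamini-Hochberg adjusted p under 0.05. The members, lists and tests were chosen with earlier results of these data known. From each list up to 4 genes with the smallest adjusted p were named, with Slc35a3 added after its values were seen. For likeness the 5 genes of highest r were named, leaving out members and Gm-numbered or Rik names. Some genes covered by this rule are not reported here. The planned protein comparison was replaced by the longest open reading frames of M21 transcripts, aligned with biopython 1.88. Python 3.11.15 with pandas 2.3.3 and numpy 2.4.6 made the tables, scipy 1.17.1 the permutation tests and matplotlib 3.10.9 the figures. Alternatives were other pseudocounts, filters, thresholds and scalings, a replicate block, removal of trends on GC content and length, and leaving out each library. For Ugt2b37, fits without a filter that also left out KO replicate 1 or used a pseudocount of 0.1 were added after seeing the data.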

Additional observations from a re-analysis of the deposited data

How the results depend on the processing

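Ugt2b1, Ugt2b5, Ugt2b35 and Ugt2b38 kept their direction and their call under all 17 alternatives, with log2 differences of 0.78 to 1.61, 0.66 to 1.47, 0.86 to 1.59 and 2.61 to 3.84. Members called higher numbered 4 to 5 and lower 0 to 1 when each library was left out, and 1 was lower with mitochondrial rows left out of the total. Differences that turned sign were Ugt2b34 with median centring (-0.12), quantile normalization (-0.30) and mitochondrial rows left out (-0.21), Ugt2b36 with quantile normalization (-0.03) and Ugt3a2 with mitochondrial rows left out (-0.04). Replicate numbers did not pair the libraries (r of same-numbered deviations -0.049, -0.096 and 0.181), and a replicate block left 5 members higher and 0 lower. Over all genes, higher and lower calls numbered 1911 and 1157, 3171 and 1045 with no filter, and 468 and 559 with a filter of 10 FPKM. Glucuronidation genes called higher (9) numbered 3 with the filter of 10 FPKM, 6 with mitochondrial rows left out, 7 with GC and length trends removed and the block, 13 with no filter (22 tested) and 8 to 9 with a library left out. Those called lower (2) numbered 1 with no filter, a replicate block, GC and length trends removed with or without the block, or a threshold of 0.01, numbered 4 with quantile normalization, and 1 to 2 with a library left out. Regulators called higher (6) numbered 1 with the filter of 10 FPKM, 2 with GC and length trends removed with or without the block, 3 with median centring, quantile normalization, mitochondrial rows left out or a threshold of 0.01, and 2 to 6 with a library left out. Those called lower (1) numbered 2 with no filter, median centring or mitochondrial rows left out and 3 with GC and length trends removed with or without the block. With the filter of 10 FPKM, 8 glucuronidation genes and 5 regulators were tested. Their medians were -0.075 and -0.262, in place of 0.85 and 0.57 in the main fit. The causes of the changes in these counts were not tested. The median over all genes was 0.121, and -0.161, -0.126 and -0.198 with median centring, quantile normalization and mitochondrial rows left out. Of the 14 other genes named from the lists, Ugdh, Slco1a1, Slco1a4, Abcg2, Akr1a1, Xylb, Nr1h4, Bcl6 and Nfe2l2 kept their call at 0.05 wherever they were fitted. Abcg2, Akr1a1, Bcl6 and Xylb were not fitted at the filter of 10 FPKM, nor Xylb without any 1 KO library. Depth limits mainly Ugt2b37, with 13 to 324 reads per library. Among low values that gave whole reads, 67.01% to 70.51% per library were even numbers. How many separate fragments the counted reads stand for was not tested.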
